A study of Mus musculus with 167 samples.

Results

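The genes described here are 10 regulators of the actin cytoskeleton that are best known from leukocytes: Coro1a, Lcp1, Lsp1, Hcls1, Was, Nckap1l, Vav1, Dock2, Arhgdib and Fermt3. They are the 10 rows, of 57010 identifiers in the count table, whose Ensembl ID carries one of these symbols. The genes were chosen by their levels in these same libraries, as leukocyte actin genes whose CPM shows a split between reprogramming cocktails. Levels that differ between cocktails are therefore given as a description, without a test. Tests are given against untransduced fibroblasts, between days, between sort gates, between the reporter lines and against splenic cells. These tests use the same transduced libraries that chose the genes. Differences between cocktails in their results are therefore not independent of that choice and are a description only.

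The study asked how mouse embryonic fibroblasts (MEFs) change when transcription factors of dendritic cells are added by lentivirus, and profiled bulk RNA of sorted cells. The PIB cocktail joins Pu.1 (the gene Spi1) with Irf8 and Batf3. PIP joins Pu.1 with Irf4 and Prdm1. SII is made of Spib with Irf8 and Ikzf2. Every PIB and PIP library, and the SII libraries called C9a.SII, came from C9a MEFs, which are homozygous both for Cre at the Clec9a locus and for a Cre-dependent tdTomato reporter at Rosa26. The hCD2.SII libraries came from hCD2 MEFs, which are heterozygous for an hCD2-Cre allele and for a YFP reporter at Rosa26, on a C57BL/6 background. All the transduced cells thus carried a Cre allele and a Rosa26 reporter, and so did the untransduced controls, C9a.MEF (n = 4, sorted tdT-CD45-) and hCD2.MEF (n = 4, sorted YFP-CD45-). Clec9a is a dendritic cell gene and is used here as a reporter of the cell state, so the tdTomato gate itself selects cells that had switched on a dendritic gene. At day 3, 6 or 9 after transduction, live cells were taken that had the reporter, CD45, or the reporter and CD45 together, the last called double positive here. Freshly isolated splenic cells of wildtype mice were the references: conventional dendritic cells of type 1 (cDC1, CD11c+MHC-II+XCR1+CD11b-, n = 3) and type 2 (cDC2, CD11c+MHC-II+CD11b+XCR1-, n = 3), and plasmacytoid dendritic cells (pDC, CD11c+Siglec-H+B220+BST2+, n = 5). The ages of the animals, and how many cultures or animals stand behind the replicates, are not given in the sources used here, so p-values measure the spread between these libraries, which may be technical.

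Actin filaments are assembled, branched, bundled and anchored by proteins that respond to small GTPases such as Rac and Cdc42. Many of these proteins come as a pair of close relatives, a broadly expressed form and a form known mainly from blood cells. In dendritic cells the blood-cell forms are known for roles in migration, uptake of particles, and the contact with T cells. The 10 genes span these steps. Coro1a encodes coronin 1A, which binds filaments and the Arp2/3 complex. Lcp1 encodes L-plastin, a filament bundler, Lsp1 a filament-binding protein, and Hcls1 the homologue of cortactin called HS1. Was encodes WASP, which activates Arp2/3 downstream of Cdc42, and Nckap1l encodes HEM1, a subunit of the WAVE complex that activates Arp2/3 downstream of Rac. Vav1 and Dock2 load Rac with GTP, Arhgdib keeps small GTPases in the inactive state in the cytosol, and Fermt3 (kindlin-3) helps to activate integrins.

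Across the libraries of the 41 groups, 3 to 5 in each, total counts ran from 1146927 to 21976374 with a median of 10960122, and all but 2 libraries were above 2000000. Levels are given as CPM, counts scaled to the same library total in every sample. A level of 3 counts, taken as the floor of detection, corresponded to 0.137 to 2.62 CPM, which covers counting error only. CPM is not corrected for gene length, so levels are compared here between samples and not between genes. Another 3 libraries carried transduced factors of another cocktail than their label and are left out of group levels: the libraries labelled PIB day 6 tdT+ replicate 4, PIP day 3 tdT+ replicate 5 and C9a.SII day 6 tdT+ replicate 5. Their members went against the label too: Lcp1 was at 238.3 CPM in the first, Vav1 at 23.7 CPM in the second, and Arhgdib at 39.8 CPM in the third. Some other libraries stood apart from their group by marker genes. In double positive hCD2.SII cells of day 9, replicate 1 had a summed level of 10 fibroblast markers of 8074 CPM against 705.6 to 776.8 CPM in the other libraries. In pDC, replicate 1 had 1204 CPM of these markers against 23.3 to 105.6 CPM. On day 3 double positive PIP replicate 3 had Ptprc, the gene of CD45, at 14.1 CPM against 82.6 to 84.4 CPM, and double positive C9a.SII replicate 2 had it at 1.52 CPM against 114.8 to 334.2 CPM. Tests of the members that include these libraries were also run without them, and those values stand beside the tests.

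The name of the group was checked against the controls. Coro1a, Lcp1, Was, Hcls1, Vav1, Nckap1l, Dock2 and Fermt3 were at most 1.70 CPM in every MEF library and between 28.8 and 2305 CPM in every splenic library. The name did not hold for Arhgdib and Lsp1 in these cells. Arhgdib was at medians of 118.4 and 126.9 CPM in C9a and hCD2 MEFs and Lsp1 at 64.6 to 94.6 CPM over all MEF libraries, so both were well expressed before any factor was added. The splenic populations carried the markers of their own types, with summed levels of 2645 to 2685 CPM for cDC1 markers in cDC1, 1263 to 1303 CPM for cDC2 markers in cDC2 and 2241 to 6588 CPM for pDC markers in pDC.

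**Figure D1:**
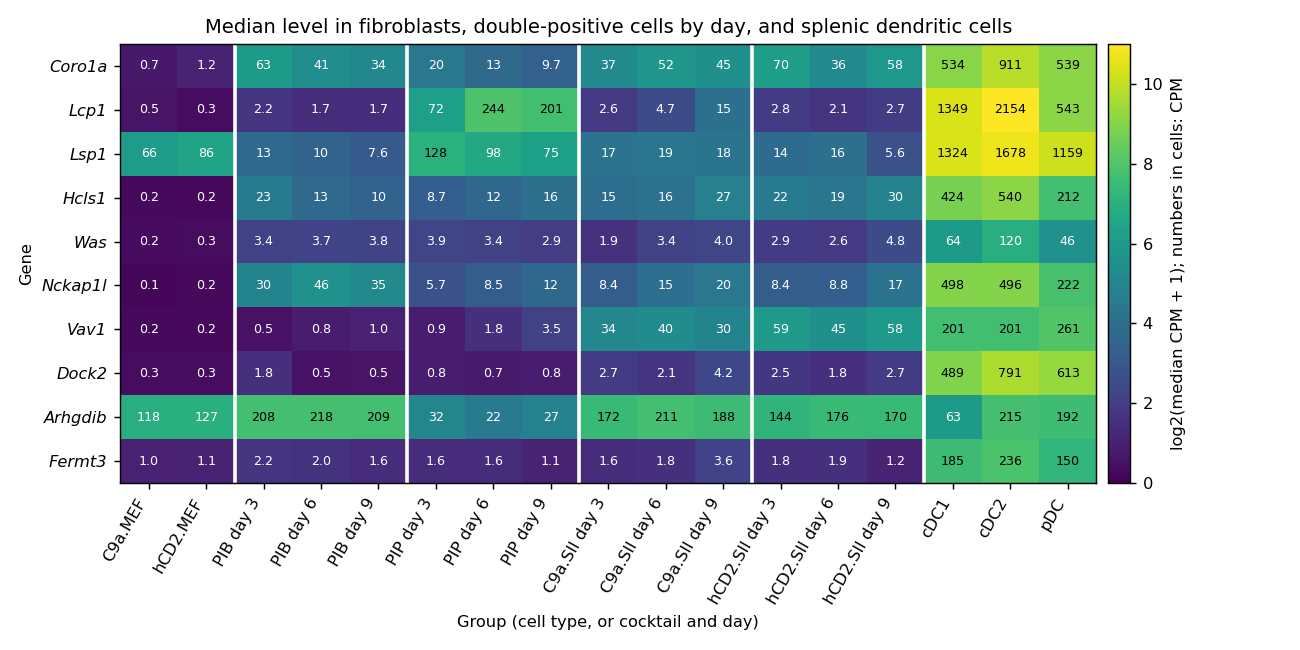
Median CPM of the 10 genes (rows) in both MEF groups, in double positive cells by cocktail and day, and in the 3 splenic types (columns), coloured by log2(median CPM + 1) with the median printed in each box. Rows are to be read from left to right and not against each other: Lcp1 is high in the PIP columns, Vav1 in the SII columns, and Arhgdib is low in the PIP columns.

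Stretches of 120 bases before annotated starts of Vav1, Lcp1 and Arhgdib are shown here as examples. The day 9 levels of each set at least 1 cocktail apart from the others. Those of Coro1a, Hcls1, Dock2 and Fermt3 did so too, and their stretches are not shown. The stretches come from RefSeq (GRCm38.p6) and are read in the direction of the gene. Capitals mark the letters GAGGAAGT, a form of the site bound by Pu.1 and Spib. The Vav1 stretch lies at chr17:57278980-57279099 on the + strand. Those of Lcp1 lie at chr14:75131003-75131122 and chr14:75136305-75136424 on the + strand, before each of the annotated starts. That of Arhgdib lies at chr6:136941900-136942019 on the - strand, before the outermost of its starts.
Vav1: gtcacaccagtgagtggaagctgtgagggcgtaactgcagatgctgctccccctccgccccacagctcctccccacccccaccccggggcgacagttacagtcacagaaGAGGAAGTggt
Lcp1, first start: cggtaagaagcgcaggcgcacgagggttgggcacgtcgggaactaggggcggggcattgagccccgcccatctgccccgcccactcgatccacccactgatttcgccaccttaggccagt
Lcp1, other start: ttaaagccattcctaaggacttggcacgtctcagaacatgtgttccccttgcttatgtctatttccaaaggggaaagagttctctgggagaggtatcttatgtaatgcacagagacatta
Arhgdib: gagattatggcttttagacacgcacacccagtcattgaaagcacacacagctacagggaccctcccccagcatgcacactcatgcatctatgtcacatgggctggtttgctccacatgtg

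In windows of 300 bases (250 before and 50 after a start), searched on both strands, GAGGAAGT was present in 3.20% of 32851 RefSeq windows. Among the members 8 had such windows, 12 in all, and Lsp1 and Nckap1l had none. GAGGAAGT was present in 1 of the 12, that of Vav1, where it begins 11 bases before the start. TGANTCA, a form of the site of AP-1 and Batf factors, was in 7.81% of all windows and in 1 member window, as TGACTCA beginning 72 bases before the start of Hcls1. GNGAAAGT, part of the site of Prdm1, was in 4.21% of all windows and in the Hcls1 window on the opposite strand. TGGGAA, the core of the Ikaros family site, was in 25.6% of all windows and in that of Was. The composite site of Ets and Irf factors and the Irf repeat, in 2.72% and 3.44% of all windows, were in no member window. The motifs share letters, AAGT between GNGAAAGT and GAGGAAGT and GGAA between TGGGAA and GAGGAAGT, and matches describe letters only.

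Lcp1 (chr14:75131101-75230842), the bundler, was high in PIP cells. In double positive cells of day 9 the 4 PIP libraries had 192.6, 201.3, 201.3 and 211.8 CPM. The 5 PIB libraries had 1.51, 1.80, 1.63, 1.72 and 2.79 CPM, and the 4 C9a.SII libraries had 22.7, 18.5, 11.7 and 5.03 CPM. Every PIP library lay above every PIB and C9a.SII library, and every C9a.SII library lay above every PIB library. The log2 differences, given without a test because these values chose the genes, were 6.9 for PIP over PIB, 4.04 for PIP over C9a.SII and -2.88 for PIB over C9a.SII. The hCD2.SII libraries, with 1.25, 3.44 and 2.72 CPM, overlapped the PIB range. In the MEFs Lcp1 was at 0, 0.625, 0.552 and 0.463 CPM (C9a) and 0.209, 0.648, 0.353 and 0.168 CPM (hCD2). In the spleen it was at 1349, 1323 and 1361 CPM in cDC1, at 2145, 2154 and 2305 CPM in cDC2, and at 207.8, 543.4, 574.9, 455 and 591.6 CPM in pDC. Ordered by median over the 41 groups, Lcp1 was highest in cDC2, then cDC1 and pDC, followed by the 9 PIP groups from 243.5 CPM (day 6 double positive) down to 53.2 CPM (day 3 CD45+). The next group was double positive C9a.SII of day 9 at 15.1 CPM. Neighbours in this order overlapped from pDC downwards, except the CD45+ PIP cells of day 9 and the tdT+ PIP cells of day 3, whose libraries did not overlap.

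Lsp1 (chr7:142460809-142494867), a filament-binding protein, was low in PIB and SII cells and lay near its fibroblast level in PIP cells. Its MEF libraries had 68.7, 66, 66.4 and 64.6 CPM (C9a) and 87, 84.5, 94.6 and 75.3 CPM (hCD2). On day 9 the double positive PIP libraries had 73.3, 77.6, 70 and 87.1 CPM, all above the C9a.MEF libraries. The PIB libraries had 6.45, 10.8, 7.11, 9.37 and 7.58 CPM and the C9a.SII libraries 13.1, 19.2, 16.6 and 20 CPM, all below the C9a.MEF libraries and without overlap between the cocktails. The log2 difference was 3.35 for PIP over PIB, 2.27 for PIP over C9a.SII and -1.1 for PIB over C9a.SII. The hCD2.SII libraries spread widely, with 28.9 CPM in replicate 1, the library high in fibroblast markers, and 4.34 and 5.61 CPM in the others. Splenic cells had far more, from 270.4 CPM in the pDC library high in fibroblast markers to 1989 CPM in cDC2.

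Coro1a (chr7:126699773-126707787), the coronin, was lowest in PIP cells among the C9a cocktails. The hCD2.SII cells sorted by YFP alone lay below every PIP group, at medians of 7.91, 3.37 and 2.23 CPM on days 3, 6 and 9. Double positive hCD2.SII cells of day 9 had 15.7 to 59.6 CPM. The double positive PIP libraries of day 9 had 9.08, 10.2, 9.16 and 11.3 CPM, the PIB libraries 31.7, 34.7, 36.2, 33.6 and 34.3 CPM, and the C9a.SII libraries 28.8, 55.6, 44.7 and 46.2 CPM. PIP did not overlap with either of the other cocktails, and PIB and C9a.SII overlapped each other. The log2 differences were -1.64 for PIP over PIB, -2.03 for PIP over C9a.SII and -0.41 for PIB over C9a.SII. In MEFs it was between 0.365 and 1.26 CPM.

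Hcls1 (chr16:36934983-36963212), the cortactin homologue, split less. The double positive libraries of day 9 had 7.96, 10.3, 8.22, 11.2 and 15.5 CPM with PIB, 15.7, 15.4, 13.1 and 18.1 CPM with PIP, and 26.2, 31.3, 25.4 and 27.1 CPM with C9a.SII. PIB and PIP overlapped, and C9a.SII lay above both. The hCD2.SII libraries had 6.25 CPM in replicate 1 and 29.6 and 29.9 CPM in the others.

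Was (chrX:8081453-8090498), the Cdc42 effector, did not split. Its day 9 levels in double positive cells were 2.47 to 4.30 CPM with PIB, 2.61 to 4.13 CPM with PIP and 2.65 to 8.72 CPM with C9a.SII, and each pair of cocktails overlapped. Nckap1l (chr15:103453794-103498810), the WAVE complex subunit, was highest in PIB cells, at 35.4, 28.7, 32.5, 37 and 55.6 CPM. It was at 10.2, 13.8, 9.43 and 16.3 CPM in PIP cells and at 20.1, 19.7, 11.9 and 20.4 CPM in C9a.SII cells. PIB lay above both, and PIP and C9a.SII overlapped. The log2 difference of PIP over PIB was -1.46 for Nckap1l and -0.015 for Was.

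Vav1 (chr17:57279100-57328031), the Rac exchange factor, marked the SII cells. In double positive cells of day 9 the C9a.SII libraries had 27, 38, 32.1 and 28.6 CPM and the hCD2.SII libraries 22.3, 58.5 and 60.3 CPM. The PIP libraries had 2.77, 3.35, 5.66 and 3.74 CPM, and the PIB libraries 1.51, 1.03, 0.889, 2.06 and 0.892 CPM. The 3 cocktails did not overlap in C9a cells, with C9a.SII above PIP and PIP above PIB. The log2 differences were -4.63 for PIB over C9a.SII, -2.9 for PIP over C9a.SII and 1.72 for PIP over PIB. In the spleen Vav1 was between 104.5 and 282.3 CPM, and the 3 types overlapped in the chain pDC, cDC2, cDC1. In the order of group medians the 15 groups after the splenic types were all SII groups, from 59.2 CPM (hCD2.SII day 3, double positive) to 17.2 CPM (C9a.SII day 9, tdT+). The next was double positive PIP of day 9 at 3.54 CPM, which did not overlap them. The 3 SII groups that fell outside that run were the hCD2.SII cells sorted by YFP alone. There, Vav1 was at 1.69 to 2.83 CPM in 4 of 5 libraries on day 3, at 1.71 to 2.91 CPM in 3 of 4 on day 6 and at 0.764 to 2.06 CPM on day 9. The exceptions, day 3 replicate 5 at 42.2 CPM and day 6 replicate 4 at 34 CPM, had Ptprc at 34.2 and 3.13 CPM.

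Dock2 (chr11:34226815-34783892), another Rac exchange factor, stayed close to the floor in double positive PIB and PIP cells of day 9. It had 0.223 to 0.637 CPM with PIB, 0.639 to 1.31 CPM with PIP and 13.1, 5.402, 2.91 and 2.79 CPM with C9a.SII. All C9a.SII libraries lay above the other 2 cocktails, and the highest of them, replicate 1, had the fewest counts of the series, 1146927. The log2 differences of Dock2 were -3.39 for PIB over C9a.SII and -2.29 for PIP over C9a.SII. In the spleen Dock2 was between 288.3 and 807.9 CPM.

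Arhgdib (chr6:136923655-136941899), a GDP-dissociation inhibitor of small GTPases, was low in PIP cells only among the C9a cocktails of day 9. The double positive PIP libraries had 25.4, 27.8, 30.6 and 26.6 CPM, the PIB libraries 226.4, 209.2, 211.3, 202.1 and 177.5 CPM, and the C9a.SII libraries 145.6, 215.5, 176.8 and 199 CPM. The MEFs had 117.3, 114.001, 119.5 and 131.6 CPM (C9a) and 132.6, 125.9, 127.8 and 118.1 CPM (hCD2). PIP lay below every MEF library, PIB and C9a.SII lay above the C9a.MEF libraries, and PIB and C9a.SII overlapped. The log2 differences were -2.76 for PIP over PIB, -2.6 for PIP over C9a.SII and 0.14 for PIB over C9a.SII. In the order of group medians the 9 PIP groups took the last 9 places, from 39.8 CPM (day 9 CD45+) to 19.7 CPM (day 6 tdT+), below cDC1 at 53.4 to 64.1 CPM. The upper end mixed PIB groups, SII groups, cDC2 and pDC without a gap between neighbours, down to C9a.MEF at a median of 118.4 CPM.

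Fermt3 (chr19:6998958-7019469), the integrin activator, was at 1.19 to 2.68 CPM with PIB, 0.918 to 1.15 CPM with PIP and 11.3, 3.57, 3.60 and 2.04 CPM with C9a.SII. PIP lay below both other cocktails, which overlapped each other. Its MEF level was 0.618 to 1.70 CPM, so PIP cells were within the range of the fibroblasts.

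**Figure D2:**
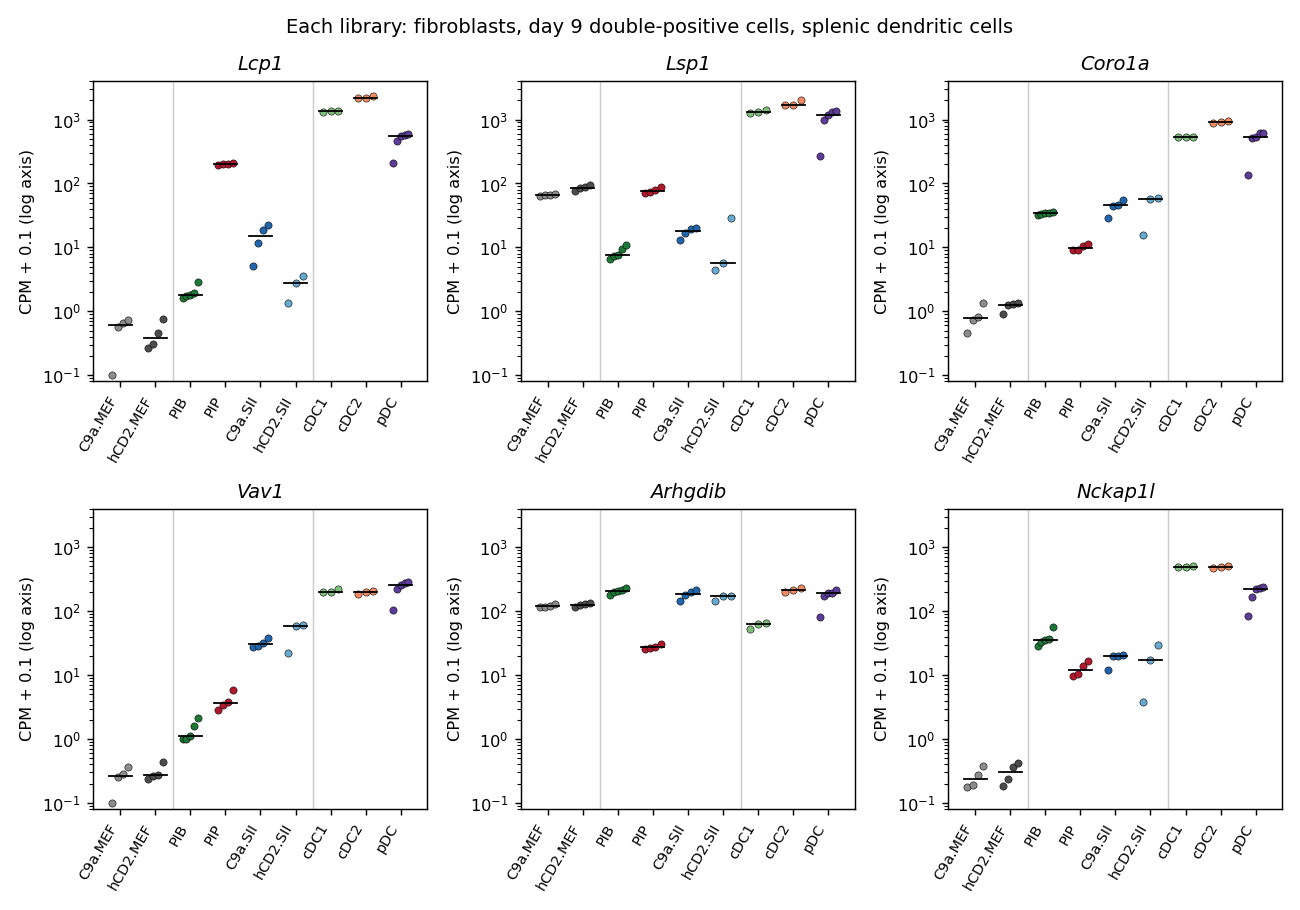
CPM + 0.1 on a log axis of Lcp1, Lsp1, Coro1a, Vav1, Arhgdib and Nckap1l in MEFs, in double positive cells of day 9 and in splenic cells; each point is a library and the line is the group's median. The 4 PIP libraries sit between 192.6 and 211.8 CPM for Lcp1 and between 25.4 and 30.6 CPM for Arhgdib, apart from all PIB and SII libraries.

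Counted over the members, the day 9 libraries of PIP and PIB did not overlap for 7 of the 9 members that passed the low-count filter, with 3 higher and 4 lower in PIP, beside 44.1% of all genes tested. For PIP and C9a.SII it was 8 of 10, with 2 higher and 6 lower in PIP, beside 39.7% of all genes. For PIB and C9a.SII it was 6 of 10, with 1 higher and 5 lower in PIB, beside 31.4%. Since the cocktails chose the members, nothing is read from these shares. The same split was followed over the 9 combinations of day and gate. The median of Lcp1 was higher with PIP than with PIB in 9 of 9 combinations, with ratios from 6.88 to 226.5 and no overlap in 8. The overlap was in CD45+ cells of day 3, where 1 PIB library had 89.8 CPM and the PIP libraries 1.82 to 71.1 CPM. That PIB group also held the highest PIB level of Vav1, 36.3 CPM, beside a median of 0.616 CPM over all PIB libraries. Over the same libraries Dock2 reached 34.1 CPM, beside a median of 0.516 CPM. The median of Lsp1 was higher with PIP than with PIB in 9 of 9, with ratios from 3.07 to 10.2 and no overlap in 8. Arhgdib was lower with PIP in 9 of 9, with ratios of 0.0956 to 0.231 and no overlap in any combination. Coro1a was lower in 9 of 9 as well, again with no overlap, at ratios of 0.253 to 0.646. Against C9a.SII the median of Vav1 was lower in 9 of 9 combinations with PIP, at ratios of 0.0122 to 0.146 and no overlap, and in 9 of 9 with PIB, at ratios of 0.00215 to 0.0722 and no overlap in 8. Nckap1l was higher with PIB than with C9a.SII in 9 of 9 combinations, at ratios of 1.15 to 3.56 and no overlap in 7. Was was higher with PIP than with PIB in 5 combinations and lower in 4, with overlap in all.

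Markers of other cell types differed between the cocktails as well. In double positive cells of day 9 the 10 fibroblast markers summed to 6452 to 7911 CPM with PIB, 1058 to 1338 CPM with PIP and 1736 to 2336 CPM with C9a.SII, against 14830 to 17950 CPM in the MEFs. The 5 macrophage markers summed to 673.3 to 968.1 CPM with PIB, 43 to 47.6 CPM with PIP and 40.8 to 188.6 CPM with C9a.SII, against 0.353 to 3.30 CPM in the MEFs. None of the 10 fibroblast and 5 macrophage markers was at 0 in any of these groups. Markers of T and NK cells (at most 7.47 CPM), B cells (at most 2.62 CPM) and neutrophils (at most 10.1 CPM) were low in all these libraries. Their part in the differences between the cocktails was not tested. In bulk RNA fewer cells of a type and less RNA per cell cannot be told apart.

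Against their own MEFs, most members rose under every cocktail. In this and the later tests a gene was called changed at an adjusted p under 0.05 in edgeR and a change of at least 2-fold. With PIB 6 of the 9 tested members rose and 1 fell, where 10.4% of all genes rose and 11.4% fell. With PIP 6 of 9 rose and 1 fell, beside 15.2% and 14.5%. With SII 8 of 10 rose and 1 fell in C9a cells, beside 10.5% and 10.9%, and 7 of 10 rose and 1 fell in hCD2 cells, beside 10.8% and 8.41%. The median log2 change of the tested members was 3.06 with PIB, 3.92 with PIP, 4.41 with C9a.SII and 3.22 with hCD2.SII, where that of all genes was 0, 0.047, 0.025 and 0.011. Members that passed the filter through the transduced cells alone had to differ. These counts and medians, and the p-values of such members below, therefore describe the tested members only. PIB, PIP and C9a.SII were compared with the same 4 C9a.MEF libraries, and their values are given side by side for that reason. The same day 9 libraries showed the split that chose the members. How far the changes differ between cocktails is therefore a description, and the p-values are no support for it. The double positive cells were sorted for CD45 and the MEFs for its absence. Ptprc was at 58.5 to 292.8 CPM in the double positive cells of day 9 and at most 0.368 CPM in the MEFs, so these changes are between populations selected for a leukocyte protein and against it. The double positive cells were also lower in the fibroblast markers given above, and the part of this in the changes was not tested.

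The binders and bundlers moved as follows. Coro1a rose by 5.53 ± 0.17 (log2, SE) with PIB, 3.92 ± 0.23 with PIP, 5.95 ± 0.24 with C9a.SII and 5.31 ± 0.52 with hCD2.SII. Lcp1 rose by 9.12 ± 0.16 with PIP (adjusted p = 3.46e-15), by 5.05 ± 0.68 with C9a.SII (0.000266), by 2.21 ± 0.47 with PIB (0.00119) and by 2.77 ± 0.56 with hCD2.SII (0.00622). Lcp1 was near the floor in MEFs, as were Vav1, Nckap1l, Hcls1, Was and Dock2, so these log2 changes depend on the small count added by the fit and are no bounds. With dispersions from all groups together, Lcp1 was not called with PIB (adjusted p = 0.178) or hCD2.SII (0.139). Hcls1 rose under all 4, from 5.13 ± 0.32 with PIB to 6.82 ± 0.71 with hCD2.SII. Lsp1 went the other way: it fell by 2.94 ± 0.12 with PIB (adjusted p = 2.01e-10) and by 1.84 ± 0.08 with C9a.SII (2.7e-08). With hCD2.SII it fell by 2.69 ± 0.67 (adjusted p = 0.0214), and without the fibroblast-rich replicate 1 by 4.17 (6.7e-11), whereas without replicate 3 the adjusted p was 0.0506 and without the low-count filter 0.108. With PIP the log2 change of Lsp1 was 0.44 ± 0.06 (adjusted p = 2.48e-06), under 2-fold.

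The activators of branching rose under each cocktail. Nckap1l rose by 7.91 ± 0.32 with PIB (adjusted p = 1.26e-09), 6.47 ± 0.30 with PIP, 6.8 ± 0.34 with C9a.SII and 6.28 ± 0.84 with hCD2.SII. Was rose by 3.55 ± 0.39 with PIB, 3.56 ± 0.39 with PIP, 3.77 ± 0.55 with C9a.SII and 3.52 ± 0.57 with hCD2.SII, at adjusted p values from 4.38e-07 to 0.00255.

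Of the Rac activators, Vav1 rose by 7.67 ± 0.28 with C9a.SII (adjusted p = 7.87e-09) and 7.78 ± 0.50 with hCD2.SII (9.36e-05), by 4.79 ± 0.45 with PIP (5.38e-08) and by 3.06 ± 0.54 with PIB (0.000308). With dispersions from all groups the PIB call was lost (adjusted p = 0.0713). Dock2 passed the filter with SII only. It failed beside the same C9a.MEF libraries with PIB and PIP. With C9a.SII it therefore passed through the transduced cells and had to differ, and its p-value is a description only. Dock2 rose by 3.44 ± 0.69 with C9a.SII (adjusted p = 0.00198) and by 2.91 ± 0.88 with hCD2.SII (0.0318). The hCD2.SII call was lost without replicate 2 (adjusted p = 0.128) or 3 (0.0745) of the transduced cells, or without replicate 2 (0.0759) or 3 (0.0636) of the MEFs.

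Arhgdib, the inhibitor, fell by 1.9 ± 0.07 with PIP (adjusted p = 3.23e-13). With PIB it was higher by 0.83 ± 0.09, with C9a.SII by 0.70 ± 0.08 and with hCD2.SII by 0.35 ± 0.10. The adjusted p values of these 3 lay between 2.2e-06 and 0.0231, but the changes stayed under 2-fold. Fermt3 rose by 2.01 ± 0.51 with C9a.SII (adjusted p = 0.0075), and by 1.58 (0.000395) without the library of lowest depth. It was at 0.85 ± 0.29 with PIB (adjusted p = 0.0235, under 2-fold), 0.25 ± 0.30 with PIP (0.485) and -0.18 ± 0.50 with hCD2.SII (0.8). Without the fibroblast-rich replicate 1 of hCD2.SII the calls on the members were the same, with Coro1a at 5.66, Hcls1 at 7.21, Nckap1l at 6.71, Vav1 at 8.06, Was at 3.91, Dock2 at 3.21 and Lcp1 at 3.06. Arhgdib was then at 0.37 and Fermt3 at -0.34.

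The broadly expressed relatives of the members were followed as well. Of 15 such genes, 13 were tested with PIB, C9a.SII and hCD2.SII and 12 with PIP, while Pls1 and Fermt1 were too low in all. With PIB 2 rose and 1 fell, beside 10.4% and 11.4% of all genes, and with PIP 3 and 3, beside 15.2% and 14.5%. With C9a.SII it was 1 and 3, beside 10.5% and 10.9%, and with hCD2.SII 0 and 2, beside 10.8% and 8.41%. Whether the relatives differ from these shares was not tested. The median log2 change of the relatives was -0.068, -0.006, 0.024 and -0.35 in the same order of cocktails. The relative of Fermt3 is Fermt2, which fibroblasts use at focal adhesions. It fell under all 4 cocktails, by 1.54 ± 0.06 with PIB, 1.89 ± 0.05 with PIP, 1.38 ± 0.10 with C9a.SII and 2 ± 0.42 with hCD2.SII (adjusted p = 0.0108). Pls3, the broad plastin, fell by 1.11 ± 0.05 with PIP, 1.45 ± 0.10 with C9a.SII and 1.69 ± 0.50 with hCD2.SII, and was at -0.07 ± 0.05 with PIB. The hCD2.SII call on Pls3 (adjusted p = 0.0363) was lost without any 1 library other than replicate 1 of the transduced cells (0.0655 to 0.0968), and without the low-count filter those on Pls3 (0.17) and Fermt2 (0.0808) were. Dock1 fell by 1.49 ± 0.06 with PIP and 1.9 ± 0.08 with C9a.SII, while it was at -0.76 ± 0.05 with PIB and -1.97 ± 0.63 with hCD2.SII (adjusted p = 0.05), where leaving out replicate 1 made it a call at -3.3. Coro1b rose by 1.13 ± 0.07 with PIB and 1.09 ± 0.05 with PIP and was at 0.87 ± 0.07 and 0.72 ± 0.11 with SII.

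The exchange factors of the Vav family divided between the cocktails. Vav3 was at 6.62 to 9.22 CPM in the MEFs and at 64.2 to 85.5 CPM in PIB and 84.9 to 93.7 CPM in PIP cells. It was at 6.75 to 12.2 CPM in C9a.SII and 3.66 to 6.43 CPM in hCD2.SII cells. It rose by 3.27 ± 0.12 with PIB and 3.63 ± 0.08 with PIP. With C9a.SII it was at 0.044 ± 0.22 (adjusted p = 0.893) and with hCD2.SII at -0.57 ± 0.29 (0.147). Vav2 was at 10.9 to 13.4 CPM in C9a.MEF and 55.8 to 73.1 CPM in PIP cells, a rise of 2.59 ± 0.08. It was at -0.37 ± 0.16 with PIB, 0.60 ± 0.11 with C9a.SII and 0.39 ± 0.23 with hCD2.SII. Vav1, as above, was highest with SII. Of the other relatives, Arhgdig rose by 1.5 ± 0.34 with C9a.SII (adjusted p = 0.00376) and was at -0.075 with PIB and 0.81 with hCD2.SII, where it was called without replicate 1 (1.13, 0.00827). Coro1c (-0.35 to 0.024), Wasl (0.24 to 0.70), Arhgdia (0.36 to 0.50), Cttn (-0.28 to 0.013), Nckap1 (-0.65 to -0.33) and Dock5 (-0.94 to 0.65) were not called under any cocktail, the ranges being of log2 changes over the 4.

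**Figure D3:**
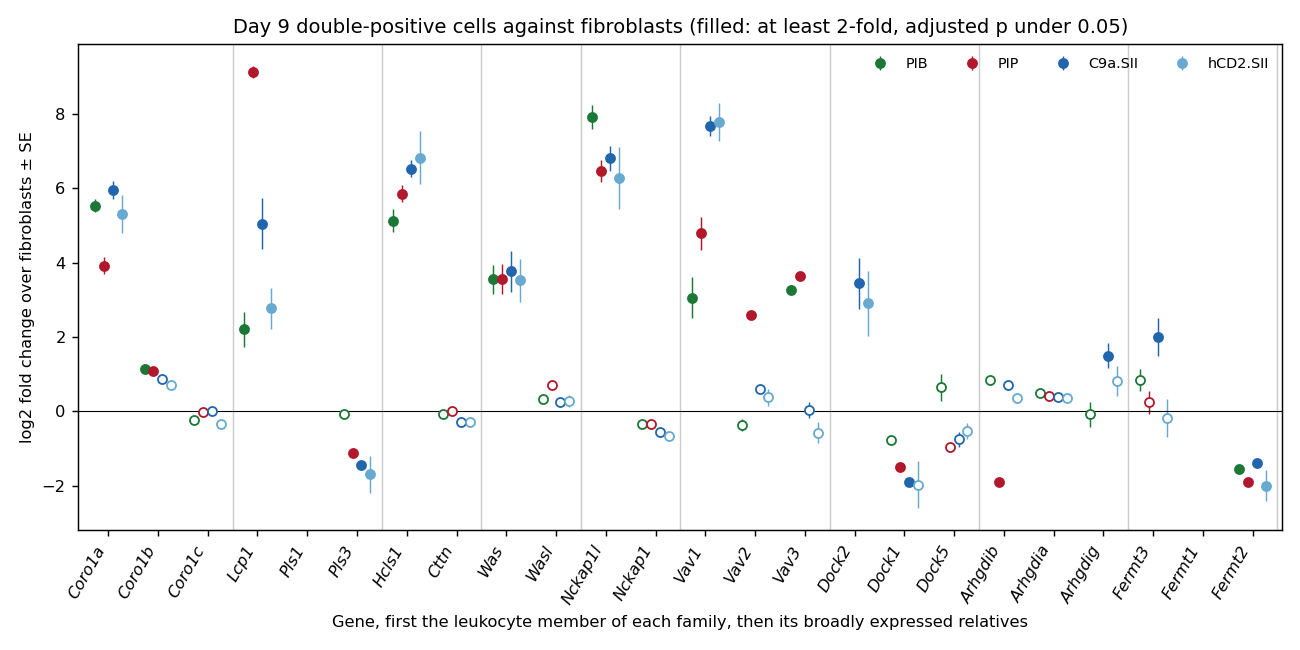
Log2 change over MEFs on day 9 (points, with SE bars) of the members and of their broadly expressed relatives for each cocktail; filled points passed the test at 2-fold or more. Nckap1l lies at 6.28 to 7.91 while Nckap1 lies at -0.65 to -0.33, and Fermt2 lies below 0 for each cocktail.

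The relatives were also tested directly between cocktails. Their list was drawn up with earlier results of these data known, so these p-values are not independent of that choice. Vav2 was higher with PIP than with PIB by 2.94 ± 0.14 (adjusted p = 2.94e-09) and than with C9a.SII by 1.99 ± 0.10 (7.39e-08). Vav3 was higher than with C9a.SII by 3.57 ± 0.18 with PIP (adjusted p = 6.05e-08) and by 3.22 ± 0.19 with PIB (2.39e-07). Pls3 was higher with PIB than with PIP (-1.07 ± 0.06 for PIP over PIB) and than with C9a.SII (1.38 ± 0.10). Dock5 was lower with PIP than with PIB (-1.61 ± 0.38) and higher with PIB than with C9a.SII by 1.36 ± 0.43 (adjusted p = 0.0329). The latter call was lost without any 1 of PIB replicates 1 to 4 or C9a.SII replicates 2 to 4 (0.0683 to 0.0948). Dock1 was higher with PIB than with C9a.SII by 1.14 ± 0.07, and Arhgdig was lower than with C9a.SII for PIP (-2.42 ± 0.34) and for PIB (-1.57 ± 0.27). In counts, 1 relative was higher and 2 lower for PIP over PIB (11% and 10.6% of all genes), 2 and 1 for PIP over C9a.SII (10.9% and 11.5%), and 4 and 1 for PIB over C9a.SII (8.57% and 9.92%), of 13 tested each time. The uncalled relatives, Coro1b, Coro1c, Wasl, Arhgdia, Cttn, Nckap1 and Fermt2, lay between -0.52 and 0.46 in these comparisons. Arhgdig for PIP over PIB was at -0.87 and was called without PIP replicate 1 (-1.09), and Vav2 for PIB over C9a.SII was at -0.96 and was called without PIB replicate 5 (-1.13) or C9a.SII replicate 4 (-1.01).

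A further 30 actin and adhesion genes known from leukocytes were followed as a list. Of all genes tested against MEFs, 10.4% rose and 11.4% fell with PIB, and 15.2% and 14.5% with PIP. With C9a.SII it was 10.5% and 10.9%, and with hCD2.SII 10.8% and 8.41%. Genes that passed the low-count filter through the transduced cells alone had to differ, so the counts below describe the tested genes only. Against MEFs, 15 of 24 tested rose and none fell with PIB, led by Aif1 (8.43), Plek (7.7), Arhgap25 (4.5) and Cytip (3.76). With PIP 14 of 24 rose and 2 fell, led by Aif1 (8.94), Plek (4.15), Elmo1 (3.5) and Myo1g (3.08), with Swap70 (-2.13) and Evl (-1.84) lower. With C9a.SII 17 of 26 rose and none fell, led by Plek (8.1), Aif1 (6.38), Myo1g (5.99) and Myo1f (5.72). With hCD2.SII 14 of 24 rose, led by Plek (8.17), Myo1f (6.96), Aif1 (6.77) and Myo1g (5.81), and Swap70 (-1.2) fell, a call lost without replicate 2 (adjusted p = 0.0592) and under 2-fold without replicate 3 (-0.98). Without replicate 1 Capg (1.07), Def6 (1.03) and Tagap (1.1) also rose and Evl (-1.54) fell. Aif1 encodes an actin-binding protein of myeloid cells, Plek encodes pleckstrin, a major substrate of protein kinase C, and Myo1f and Myo1g encode class I myosins. Median log2 changes of the list were 2.19, 1.37, 2.28 and 1.84 in the same order of cocktails.

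The cocktails differed within that list, which was drawn up with earlier results of these data known. Of all genes, 11% were higher and 10.6% lower for PIP over PIB. These shares were 10.9% and 11.5% for PIP over C9a.SII and 8.57% and 9.92% for PIB over C9a.SII. For PIP over PIB 3 genes were higher (Myo1g 1.58, Elmo1 1.27, Arhgap45 1.24) and 10 lower, led by Plek (-3.57), Arhgap25 (-3.01), Cytip (-2.72) and Tagap (-2.43), of 25 tested. For PIP over C9a.SII Aif1 (2.53) was higher and 10 were lower, led by Plek (-3.95), Myo1f (-3.93), Fmnl1 (-3.48) and Myo1g (-2.93), of 26 tested. For PIB over C9a.SII 6 were higher, led by Tagap (2.23), Aif1 (2.04), Cytip (1.9) and Arhgap25 (1.58), and 8 lower, led by Myo1g (-4.54), Myo1f (-4.49), Arhgap30 (-3.43) and Fmnl1 (-2.38), of 27 tested. The call on Cytip there was lost without any 1 of PIB replicates 2 to 4 or C9a.SII replicates 2 to 4 (adjusted p = 0.0559 to 0.075). Plek was at 222.2 to 252.6 CPM in PIB, 16.8 to 19.7 CPM in PIP and up to 383 CPM in C9a.SII cells of day 9, where the lowest library was still above every PIP library.

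The core machinery on which WASP and the WAVE complex act was followed next. The shares of all genes that rose and fell against MEFs are those given above for each cocktail. Of 18 genes of the Arp2/3 and WAVE complexes, 1 rose and 1 fell with PIB (Arpc2 1.06, Wasf1 -1.55). With PIP 5 rose, led by Actr3 (2.58 ± 0.05), Cyfip2 (1.87), Actr2 (1.07) and Brk1 (1.05), and Wasf3 (-1.49) and Wasf1 (-1.45) fell. With C9a.SII Cyfip2 (2.82) and Arpc2 (1.0) rose and Wasf1 (-1.76) and Wasf3 (-1.37) fell. With hCD2.SII Cyfip2 (2.91) and Abi3 (1.33) rose and Wasf1 (-1.7) and Wasf3 (-1.23) fell, 4 calls in all, while with replicate number as a block the list had 1 call. Those on Wasf1, Wasf3 and Abi3 were also lost without any 1 library other than replicate 1 of the transduced cells (adjusted p = 0.0592 to 0.161). Calls near 2-fold went under it without single libraries, Arpc2 with C9a.SII to 0.973 or above and Brk1 with PIP to 0.96 without C9a.MEF replicate 1. Actr3 encodes Arp3, a core subunit of the complex that branches filaments. It was at 247.3 to 274 CPM in C9a.MEF, 1250 to 1472 CPM in PIP, 438.1 to 607.9 CPM in PIB and 339.3 to 467.3 CPM in C9a.SII cells. Between cocktails it was higher with PIP than with PIB (1.62) and than with C9a.SII (1.85), and Cyfip2 was higher with PIP than with PIB (1.39) and lower with PIB than with C9a.SII (-2.37).

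Among 11 genes that link integrins to actin, the partners of Fermt3, the leukocyte integrin chains rose. Itgb2, the shared beta chain, rose by 5 with PIB, 4.76 with PIP, 6.41 with C9a.SII and 5.49 with hCD2.SII. Itgal, the alpha chain of LFA-1, rose by 3.86, 3.96, 4.61 and 3.28 in the same order. Tln2 fell by 2.17, 2.83, 1.77 and 1.61. Apbb1ip (RIAM) rose with PIB (1.01) and fell with PIP (-1.14), Vcl fell with C9a.SII (-1.68) and hCD2.SII (-2.7, adjusted p = 0.0101, and 0.067 without the low-count filter), and Itgb1 fell with hCD2.SII (-1.01). The calls on Apbb1ip with PIB and on Itgb1 went just under 2-fold when some single libraries were left out (0.98 without PIB replicate 5 and 0.99 without C9a.MEF replicate 3, and -0.91 without hCD2.SII replicate 3, -0.96 without replicate 2, -0.95 without hCD2.MEF replicate 1 and -0.99 without replicate 4). Between cocktails Apbb1ip was lower with PIP than with PIB (-2.18) or C9a.SII (-2.07), Itgb2 was lower than with C9a.SII for PIP (-1.66) and PIB (-1.4), and for PIP over C9a.SII Vcl was higher (1.02) and Tln2 lower (-1.07), the former under 2-fold without PIP replicate 1 (0.999) or C9a.SII replicate 2 (0.965) and the latter without C9a.SII replicate 1 (-0.98).

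Between days 3 and 9 members were called in PIB and PIP cells. In double positive PIB cells Coro1a went from 69.4, 67.7, 45.2 and 58.7 CPM on day 3, through 42.2, 40.9, 33.7 and 41.1 CPM on day 6, to 31.7 to 36.2 CPM on day 9. It fell by 1.03 ± 0.07 from day 3 to day 9 (adjusted p = 8.02e-07). Hcls1 fell by 1.36 ± 0.16 (adjusted p = 6.02e-05), from 26.3, 27.6, 20.1 and 19.4 CPM to 7.96 to 15.5 CPM. These were 2 of the 9 tested members, beside 8.47% of all genes that fell. Dock2, near the floor, did not pass the low-count filter with all libraries. Where it passed with 1 library left out, its log2 change was -2.35 to -1.72 (adjusted p = 0.003 to 0.0312 by edgeR). Over the same days the summed level of the 5 macrophage markers went from a median of 92.5 CPM to 841.4 CPM, with no overlap, and that of the 10 fibroblast markers from 4077 to 6460 CPM to 6452 to 7911 CPM. Their part in the changes was not tested. Coro1a dropped just under 2-fold without day 3 replicate 1 (-0.99) or without the low-count filter (-0.89), and with dispersions from all groups neither was called (adjusted p = 0.147 and 0.0858). Vav1 was at 1.18 ± 0.45 (adjusted p = 0.0568), and was called without day 9 replicate 5 (1.29, 0.04) or day 3 replicate 4 (1.52, 0.0395). Lsp1 was at -0.71 ± 0.16 (adjusted p = 0.00569, under 2-fold) and Nckap1l at 0.12 ± 0.15.

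In PIP cells 3 of 9 members rose from day 3 to day 9, beside 3.25% of all genes: Hcls1 by 1.05 ± 0.24 (adjusted p = 0.0216), Vav1 by 2.31 ± 0.55 (0.025) and Nckap1l by 1.48 ± 0.33 (0.0199). With replicate number as a block none of the 3 was called (0.0599, 0.129 and 0.0512). Leaving out single libraries also ended calls: Hcls1 without day 9 replicate 1, 2 or 4, Nckap1l without day 9 replicate 2 or 4, and Vav1 without any 1 of the 4 day 9 libraries or day 3 replicate 2, at adjusted p values from 0.0501 to 0.0668. With dispersions from all groups, Hcls1 (0.437) and Vav1 (0.227) were not called. Day 3 had 3 libraries, of which replicate 3 was the one low in Ptprc and higher in fibroblast markers (4773 CPM against 2640 to 2711 CPM). Lcp1 was at 76.3, 72.2 and 3.64 CPM on day 3, at 258.7, 248.4, 238.6 and 40.6 CPM on day 6 and at 192.6 to 211.8 CPM on day 9. Its change from day 3 was 2.04 ± 0.78 (adjusted p = 0.125). Without day 3 replicate 3 Lcp1 rose by 1.5 (adjusted p = 1.27e-08), Vav1 by 1.86 (0.00242) and Nckap1l by 1.17 (0.00113), Coro1a fell by 1.02 (4.65e-05), and Hcls1 was under 2-fold at 0.80 (0.00128).

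In SII cells no member was called between days 3 and 9. In C9a.SII cells none of 10 was called by edgeR beside 0.103% of all genes, 4 had an unadjusted p under 0.05, and DESeq2 called 2, Lcp1 (adjusted p = 0.00822) and Nckap1l (0.0132). Lcp1 was at 4.82, 2.66, 2.61 and 0.417 CPM on day 3 and at 5.03 to 22.7 CPM on day 9, a change of 2.41 ± 0.68 (adjusted p = 0.232 by edgeR). Without the day 3 library low in Ptprc, or without the day 9 library of lowest depth, there were still no calls by edgeR, with Lcp1 at 2.36 and 2.08. Vav1 was already at 42.3, 8.35, 40.5 and 26.6 CPM on day 3, with the lowest value in the library low in Ptprc. In hCD2.SII cells none of 10 was called beside 6.55% of all genes, 1 had an unadjusted p under 0.05 and DESeq2 called none. Without day 9 replicate 1 Lsp1 fell by 1.54 (adjusted p = 0.00109) and Nckap1l rose by 1.38 (0.00153) in edgeR. Among the relatives Pls1 fell in PIB cells by 2.22 ± 0.69 (adjusted p = 0.0252), the 1 call of 14 tested, which was lost without day 9 replicate 1 (0.0503) or 3 (0.056) or day 3 replicate 4 (0.0873). None was called of 12 in PIP (-0.63 to 0.65), 13 in C9a.SII (-0.25 to 0.79) and 13 in hCD2.SII cells (-0.90 to 0.87). In hCD2.SII cells, Arhgdig (1.21, adjusted p = 0.041), Dock1 (-1.36, 0.0167) and Fermt2 (-1.64, 0.000126) were called without day 9 replicate 1 and Vav3 (-1.24, 0.0406) without day 9 replicate 2.

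**Figure D4:**
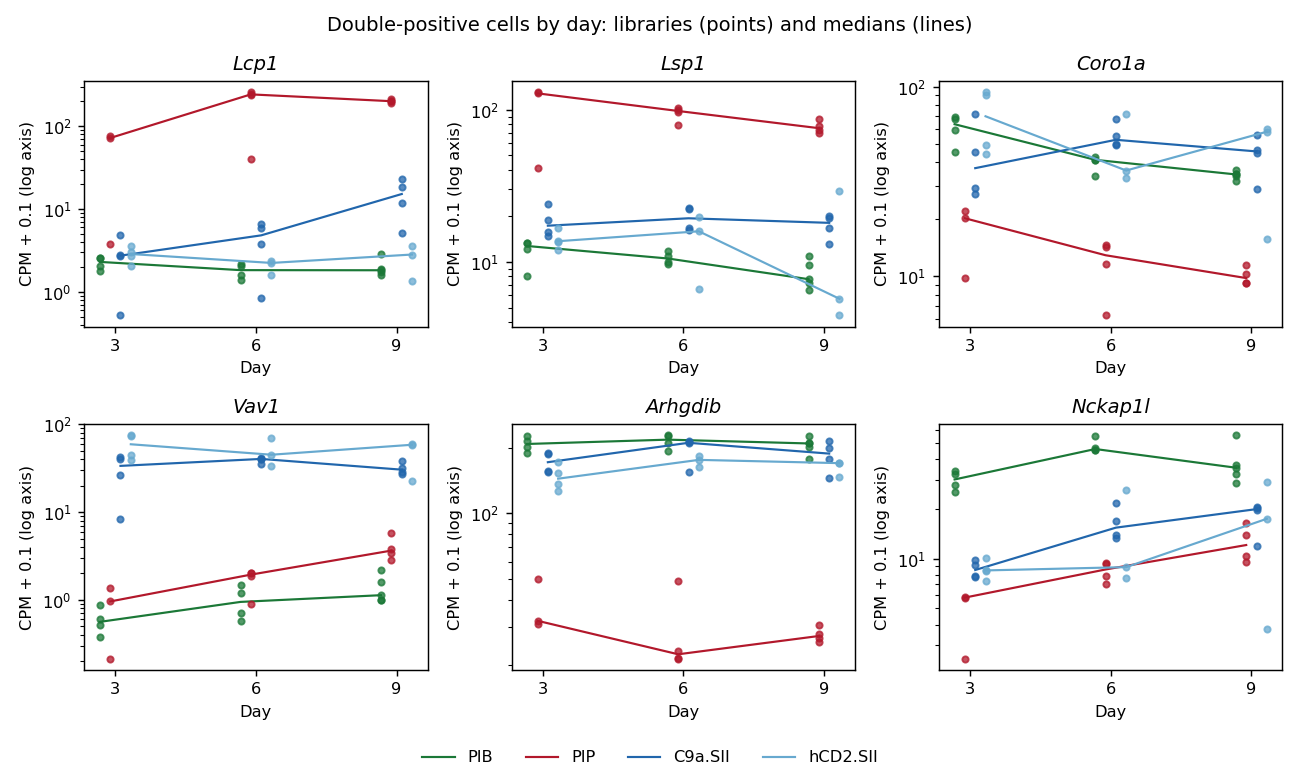
CPM + 0.1 on a log axis of 6 members in double positive cells on days 3, 6 and 9 for each cocktail; points are libraries and lines join the medians. Coro1a descends with PIB from 45.2 to 69.4 CPM on day 3 to 31.7 to 36.2 CPM on day 9, and the low PIP point of Lcp1 on day 3 is replicate 3 at 3.64 CPM.

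Cells sorted on the reporter alone were compared with the double positive cells. Ptprc was at 0.450 to 11.8 CPM in the reporter-sorted cells on day 9, against 58.5 CPM or more in the double positive cells. The comparison is thus between reporter-positive cells low and high in Ptprc, and does not take the selection for CD45 away. In PIP cells no member was called between double positive and tdT+ cells (0 of 10 by edgeR and by DESeq2, 2 at an unadjusted p under 0.05, beside 0.0122% of all genes). Lcp1 was at 298.7, 141.4, 187.4 and 145.6 CPM in tdT+ PIP cells, a range that holds the double positive libraries, with a log2 difference of 0.14 ± 0.18 (adjusted p = 0.812). Arhgdib was at 6.198, 23, 33.8 and 25.9 CPM there. Replicate 1 had the lowest value of Arhgdib, of Lsp1 (14 CPM) and of Vav1 (0.129 CPM) and stood apart in its markers, with 159.4 CPM of macrophage markers against 31.1 to 36.1 CPM in the others. Without it there were still no calls, with Lcp1 at 0.38 (adjusted p = 0.0438) and Lsp1 at 0.63 (0.00293), under 2-fold.

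In PIB cells Nckap1l was higher in double positive cells by 2.42 ± 0.16 (adjusted p = 2.21e-05), against 7.12, 5.86, 6.75, 7.98 and 8.25 CPM in tdT+ cells, and Was by 1.22 ± 0.28 (0.0246). These were 2 of 9, beside 0.94% of all genes. The call on Was was lost without any 1 of double positive replicates 2 (adjusted p = 0.0607), 4 (0.0763) and 5 (0.0502) or tdT+ replicate 1 (0.0594). Replicate 2 of the tdT+ cells was lower in fibroblast markers (4099 CPM against 6207 to 7496 CPM) and in macrophage markers (111.4 against 255.2 to 434.4 CPM). Without it Lcp1 (1.16, adjusted p = 0.0247) and Hcls1 (1.49, 0.000692) were higher in double positive cells as well.

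The SII cells were compared within each line. In hCD2.SII cells 7 of 10 members were higher in double positive than in YFP+ cells, beside 8.08% of all genes: Hcls1 by 5.81 ± 0.69, Vav1 by 5.08 ± 0.47, Nckap1l by 4.87 ± 0.76, Coro1a by 4.3 ± 0.50, Lcp1 by 2.81 ± 0.46, Was by 2.47 ± 0.55 and Dock2 by 2.29 ± 0.49. Coro1a, for instance, was at 2.22, 1.70, 2.85 and 2.25 CPM in YFP+ cells and at 15.7, 57.7 and 59.6 CPM in double positive cells. Some members were near the floor in YFP+ cells, such as Hcls1 (0.113 to 0.536 CPM) and Lcp1 (0.259 to 0.382 CPM). Members that passed the low-count filter through the double positive cells alone had to be higher there. The count and p-values therefore describe the tested members only. The 10 fibroblast markers summed to 10250 to 11350 CPM in YFP+ cells and to 8074, 705.6 and 776.8 CPM in double positive cells, and their part in the change was not tested. Without double positive replicate 1, the one at 8074 CPM, the same 7 members were called higher, with Hcls1 at 6.21, Vav1 at 5.36, Nckap1l at 5.30, Coro1a at 4.65, Lcp1 at 3.12, Was at 2.86 and Dock2 at 2.60. With all libraries the adjusted p values of the 7 by edgeR ran from 0.00133 to 0.014. With replicate number as a block, Lcp1 (0.0521), Was (0.069) and Dock2 (0.0702) were not called, with dispersions from all groups Lcp1 (0.175) was not, and leaving out double positive replicate 2 ended the calls on Was (0.0629) and Dock2 (0.0574), as leaving out replicate 3 did for Was (0.0521). Lsp1 was at 45.1, 43.3, 50.3 and 40.2 CPM in YFP+ cells and lower in double positive cells, by -1.73 ± 0.65 (0.0939), and without double positive replicate 1 by -3.22 (2.32e-12). It was also called by DESeq2 (-1.79, 0.00503) and with dispersions from all groups (-1.79, 0.00337). In C9a.SII cells no member was called by edgeR between double positive and tdT+ cells, beside 0.148% of all genes, while 7 had an unadjusted p under 0.05 and DESeq2 called 4 (Lcp1, Hcls1, Nckap1l and Fermt3). Vav1 was at 14.9 to 22.6 CPM in tdT+ and 27 to 38 CPM in double positive C9a.SII cells, a log2 difference of 0.88 ± 0.15 (adjusted p = 0.0501). Whether the gate made a different change in the 2 lines was not tested.

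Between the lines, double positive C9a.SII and hCD2.SII cells of day 9 differed in no member by edgeR (0 of 10, 2 at an unadjusted p under 0.05, beside 0.0124% of all genes). DESeq2 called 1, Lcp1 (2.63, adjusted p = 0.00388). By edgeR Lcp1 was at 2.58 ± 0.62 (adjusted p = 0.47) and Fermt3 at 2.16 ± 0.70 (0.694), and Coro1a at 0.031 ± 0.42. Without hCD2.SII replicate 1, Lsp1 was higher in C9a.SII cells by 1.87 (adjusted p = 0.00431) and no other member was called. With dispersions from all groups Fermt3 was called (2.02, 0.0372). The difference between the lines in the change over their own MEFs was tested as an interaction, in which edgeR called none of the 10 members, beside 0.568% of all genes, and 3 had an unadjusted p under 0.05. It was 2.32 ± 1.01 for Lcp1 (adjusted p = 0.326), 2.25 ± 0.77 for Fermt3 (0.212) and 0.81 ± 0.62 for Lsp1 (0.612). Without hCD2.SII replicate 1, a fit added after the data were seen, Lsp1 was called at 2.27 ± 0.18 (adjusted p = 1.93e-07), 1 of 10 members beside 4.26% of all genes, while Lcp1 (1.96, 0.278) and Fermt3 (2.36, 0.0975) were not. Line, reporter and sort colour cannot be told apart in these groups.

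Against splenic cells nearly all members stayed low. Each cocktail was set beside the splenic type that its factors are known for. PIB cells of day 9 had 9 of 10 members lower than cDC1 and 1 higher, where 32.2% of all genes were lower and 25.4% higher. PIP cells had all 10 lower than cDC2, beside 26.7% of all genes. C9a.SII and hCD2.SII cells had 9 of 10 lower than pDC and none higher, beside 19.7% and 17.7%. Members that passed the low-count filter through the splenic cells alone had to be lower. Dock2, for instance, was near the floor with PIB and PIP, at medians of 0.515 and 0.827 CPM. Its medians were 489 CPM in cDC1 and 790.9 CPM in cDC2. These counts, and the log2 differences and p-values below, therefore describe the tested members only. Transduced cells were taken from culture and splenic cells from the animal, and culture and cell type cannot be told apart here.

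Expressed as a percentage of the splenic median, Lcp1 reached 9.34% of cDC2 in PIP cells, 2.78% of pDC in C9a.SII cells, 0.50% of pDC in hCD2.SII cells and 0.127% of cDC1 in PIB cells. Its log2 differences were -3.28 ± 0.08, -4.9 ± 0.51, -7.52 ± 0.60 and -9.2 ± 0.13 in that order. Coro1a reached 6.43% with PIB, 1.07% with PIP, 8.42% with C9a.SII and 10.7% with hCD2.SII. Lsp1 stayed under 5% in all, from 0.484% with hCD2.SII to 4.496% with PIP. Hcls1 reached 2.43%, 2.88%, 12.6% and 14% with PIB, PIP, C9a.SII and hCD2.SII.

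Among the activators, Was reached 5.94%, 2.44%, 8.63% and 10.3% and Nckap1l 7.12%, 2.42%, 8.96% and 7.82% in the same order. Vav1 reached 22.4% of pDC with hCD2.SII and 11.6% with C9a.SII, but 1.76% of cDC2 with PIP and 0.513% of cDC1 with PIB. Dock2 was the lowest of the exchange factors against the spleen, at 0.105% with PIB, 0.105% with PIP, 0.678% with C9a.SII and 0.443% with hCD2.SII, and its log2 differences were -9.64 ± 0.14, -9.47 ± 0.14, -6.54 ± 0.60 and -7.54 ± 0.60. Fermt3 was between 0.460% and 2.39%.

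Arhgdib was the exception. In PIB cells it was at 331.5% of the cDC1 median, higher by 2.07 ± 0.12 (adjusted p = 9.46e-10). In SII cells it was at 98.1% (C9a) and 88.7% (hCD2) of the pDC median, with log2 differences of 0.25 ± 0.27 (adjusted p = 0.491) and -0.008 ± 0.34 (0.986). In PIP cells it was at 12.6% of the cDC2 median (-2.78 ± 0.10). Without the pDC library high in fibroblast markers the differences from pDC were 0.033 and -0.066 for Arhgdib, and the 9 lower members were still called lower in both lines. They were also called lower in hCD2.SII cells without hCD2.SII replicate 1, where Lsp1 was at -7.61 beside -6.12 with it, and the other 8 lay between -7.21 (Dock2) and -1.9 (Vav1).

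**Figure D5:**
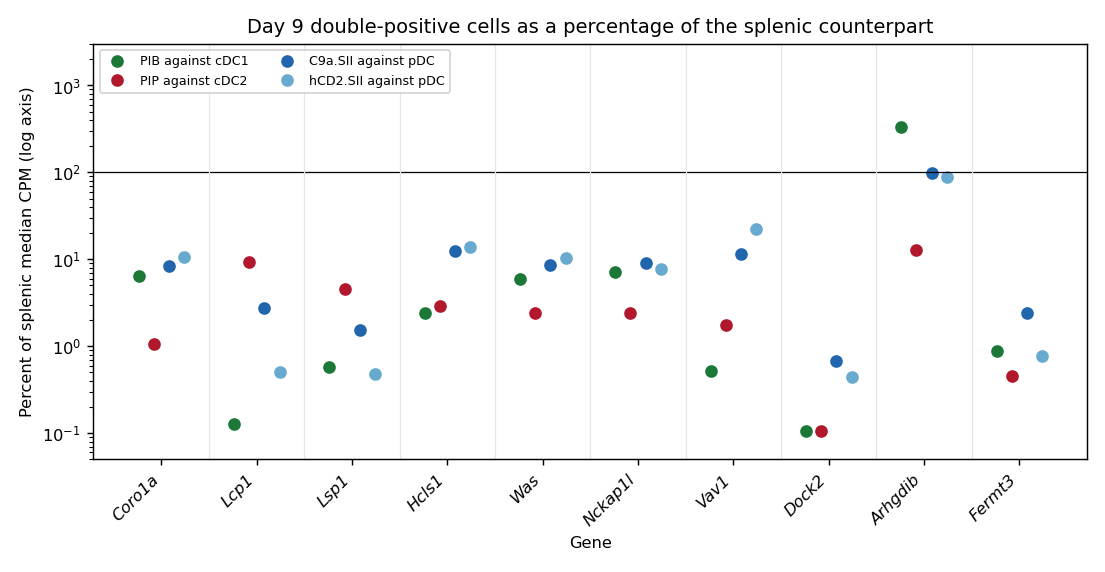
Median CPM of each member in double positive cells of day 9 as a percentage of the median in the splenic counterpart (cDC1 for PIB, cDC2 for PIP, pDC for both SII lines), on a log axis with a line at 100%. Arhgdib reaches 331.5% with PIB and lies near the line with SII, and Dock2 lies below 1% throughout.

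The splenic types differed in some members. From cDC1 to cDC2 2 of 10 were higher, beside 10.7% of all genes: Arhgdib by 1.81 ± 0.11 (adjusted p = 1.31e-12) and Was by 1.02 ± 0.12 (2.45e-07). Was, at 63.6, 47.7 and 67.6 CPM in cDC1 and 120.2, 129.4 and 118.4 CPM in cDC2, dropped under 2-fold without cDC1 replicate 2 (0.89) and with DESeq2 (0.99). Against cDC2, pDC had 4 members lower, beside 11.7% of all genes: Lcp1 by -2.34 ± 0.35, Was by -1.42 ± 0.30, Hcls1 by -1.58 ± 0.44 and Nckap1l by -1.53 ± 0.32. The call on Hcls1 was lost when any 1 of the 3 cDC2 libraries was left out (adjusted p = 0.0578 to 0.0719), and with replicate number as a block 7 members were called. Without pDC replicate 1 the 4 members were still lower, by -2.14, -1.27, -1.34 and -1.34. Against cDC1, pDC had Lcp1 (-1.55 ± 0.38) and Nckap1l (-1.46 ± 0.36) lower and Arhgdib higher (1.47 ± 0.37), beside 7.88% of all genes in each direction. All 3 calls were lost when any 1 cDC1 library was left out (adjusted p = 0.0706 to 0.141). Without pDC replicate 1 they were -1.36, -1.28 and 1.65 (adjusted p between 1.71e-05 and 2.51e-05). The highest pDC library of Vav1 had 282.3 CPM, and Vav1 differed from cDC1 by 0.10 ± 0.36 (adjusted p = 0.889) and from cDC2 by 0.10 ± 0.32 (0.818).

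Genes with the most similar pattern were sought over the 38 fibroblast and transduced groups, by Pearson's r of group mean log2(CPM + 1), as a description over groups that share lines and libraries in sorting. Lcp1 was closest to Cyth4 (0.976) and Cd52 (0.975), Vav1 to Gpr65 (0.982) and Myo1f (0.971), and Arhgdib to Tmod3 (0.972) and Parp3 (0.971). Coro1a was closest to Camk1d and Tmsb4x (both 0.929), Nckap1l to Tbxas1 (0.926) and Eps15 (0.919), Lsp1 to Lmo7 (0.909) and Fam234b (0.908), and Hcls1 to Tmsb4x (0.886) and Mbnl1 (0.884). Was, Dock2 and Fermt3 had no group mean of 10 CPM in these groups and were not matched. Among the members themselves Lcp1 and Arhgdib ran against each other (-0.897), as did Arhgdib and Lsp1 (-0.806) and Coro1a and Lsp1 (-0.701). Coro1a and Hcls1 (0.881) and Was and Nckap1l (0.848) ran together, while Coro1a and Lcp1 (-0.136) and Vav1 and Nckap1l (0.175) did neither.

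A few of the genes share exons with a gene on the opposite strand in the annotation: Coro1a with Bola2, Lcp1 with Gm15628 and Gm15629, Arhgdib with Pde6h, Dock2 with 4930403D09Rik and Fermt3 with Trpt1. Whether the counting used strand is not given in the sources used here, so reads from these overlaps cannot be told apart.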

How the data were processed

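The deposited table holds raw counts per Ensembl gene made by the authors; the submitters' processing notes name mm10, STAR 2.7.9a and Salmon 1.10.1, while the counter, annotation release and strand setting are not given in the sources used here. Libraries were made from few sorted cells with a strand-preserving kit, per the labels' protocols. Of 57010 identifiers 52029 were named. The 4981 unnamed ones took a median of 13.2% of counts (5.98 to 32.1%), most of it in 1 identifier (median 10.1%), and stayed in totals and fits. No 2 libraries of a group were copies of each other (266 pairs, chi-square over degrees of freedom at least 2.68).

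Of 23 comparisons, each was fitted on its own groups with edgeR 4.0.16 in R 4.3.3 (TMM, filterByExpr, robust quasi-likelihood F test, Benjamini-Hochberg over all genes tested). A call needed an adjusted p under 0.05 and a 2-fold change. The SE is the log2 change divided by the square root of F. Named were all members, the detected broad relatives, and up to 4 called genes per direction from each other list; 1 further list is not reported here. The members and lists were chosen with earlier results of these data known. Alternatives were DESeq2 1.42.0 (size factors, Wald test), no low-count filter, replicate block, 1 fit of all groups, each library left out, and other totals for CPM.

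The labels give replicate numbers no meaning. Only between hCD2.SII and its MEFs, of 23 comparisons, did the deviations of all same-numbered libraries correlate above 0.1 (0.109 to 0.218, 3 pairs). There the block changed no call on a member. The tests were tried on simulated counts for PIB and PIP against MEFs, hCD2.SII between days 3 and 9, and the PIP gates. Simulated 2-fold changes, which sit at the cut-off, were called in 28 to 46.5% of genes. Those of 4-fold were called in 78.8 to 100%, and unchanged genes in 0.019 to 0.065%. A lack of calls therefore does not exclude changes near 2-fold.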

Additional observations from a re-analysis of the deposited data

Results flagged for a closer look

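MEFs, splenic cells, double positive cells and the reporter-sorted cells of day 9 were screened for single libraries far from their group. The CD45+ groups and the reporter-sorted groups of days 3 and 6 were not. Of 160 pairs of a member and a screened group of 4 or 5 libraries, 17 held 1 such library by Dixon's test at 95%. Chance would pick out about 1 in 20 if the pairs were separate, but the members share the same libraries. Some of the flagged pairs fell together in 2 libraries of PIP cells. In double positive PIP cells of day 6, replicate 4 had Lcp1 at 40.6 CPM (others 238.6 to 258.7 CPM), Arhgdib at 48.8 CPM (others 21.4 to 23.3 CPM) and Vav1 at 0.799 CPM (others 1.77 to 1.91 CPM). That library also had 4789 CPM of fibroblast markers against 1277 to 1459 CPM, with Ptprc at 118.3 CPM against 94.5 to 104.2 CPM. In tdT+ PIP cells of day 9, replicate 1 had Lsp1 at 14 CPM (others 47.3 to 52.5 CPM) and Vav1 at 0.129 CPM (others 2.45 to 2.58 CPM).

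In tdT+ PIB cells of day 9, replicate 2 was high in Coro1a, 51.1 CPM (others 11 to 20.5 CPM), Hcls1, 25.3 CPM (others 3.25 to 4.84 CPM), and Lcp1, 3.05 CPM (others 0.69 to 1.14 CPM). In pDC, replicate 1 was low in Coro1a, 137.1 CPM (others 508.6 to 625.9 CPM), and in Arhgdib, 80.5 CPM (others 175.1 to 213.6 CPM).

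The others were single genes. In double positive PIB cells, day 6 replicate 3 had Coro1a at 33.7 CPM (others 40.9 to 42.2 CPM), day 6 replicate 4 had Nckap1l at 55 CPM (others 45.3 to 46.5 CPM), and day 9 replicate 5 had Lcp1 at 2.79 CPM (others 1.51 to 1.80 CPM). In double positive C9a.SII cells, day 6 replicate 4 had Arhgdib at 154.8 CPM (others 209.4 to 213.6 CPM) and day 6 replicate 2 had Vav1 at 35.3 CPM (others 40 to 40.9 CPM). On day 9 replicate 3 had Nckap1l at 11.9 CPM (others 19.7 to 20.4 CPM) and replicate 1 had Fermt3 at 11.3 CPM (others 2.04 to 3.60 CPM).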

How the results depend on the processing

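Of 52 counts of called genes, 33 stayed within 1.5 times under every alternative and 19 did not; no named result changed sign after being called. The causes were not tested. In the counts below the value as reported stands in brackets. Without the low-count filter the calls were 4 (2) and 4 (7) for Arp2/3 and WAVE genes with PIB and PIP against MEFs, 1 (2) for relatives with hCD2.SII against MEFs, 2 (1) for relatives in PIB from day 3 to day 9, 5 (0) for members in the C9a.SII gate comparison and 0 (3) for members in pDC over cDC1. With the DESeq2 Wald test they were 2 (0) for members in C9a.SII from day 3 to day 9, 2 (1) for Arp2/3 and WAVE genes for PIB over C9a.SII, 1 (0) for members between lines, 4 (0) for members in the C9a.SII gate comparison and 1 (2) for members in cDC2 over cDC1, which was also 1 with DESeq2 size factors. With replicate number as a block, where the labels do not pair libraries, they were 0 (3) for members in PIP from day 3 to day 9, 4 (7) for members in the hCD2.SII gate comparison, 7 (4) for members in pDC over cDC2 and 1 (4) for Arp2/3 and WAVE genes with hCD2.SII against MEFs. With all groups in 1 fit they were 4 (2) for relatives with hCD2.SII against MEFs, 0 (2) for members and 2 (1) for relatives in PIB from day 3 to day 9, 1 (3) for members in PIP from day 3 to day 9, 1 (0) between lines, 1 (2) and 2 (0) for members in the PIB and C9a.SII gate comparisons, and 7 (4) for members in pDC over cDC2.

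Leaving out 1 library at a time gave 1 to 2 (1) for Arp2/3 and WAVE genes for PIP over C9a.SII, and with hCD2.SII against MEFs 1 to 4 (4) for those genes and 1 to 5 (2) for relatives. For members it gave 0 to 1 (0) between lines, 1 to 4 (2) in the PIB gate comparison, 2 to 4 (2) in PIB, 0 to 4 (3) in PIP and 0 to 2 (0) in hCD2.SII from day 3 to day 9, 1 to 2 (2) in cDC2 over cDC1 and 0 to 3 (3) in pDC over cDC1. For relatives it gave 0 to 1 (1) in PIB and 0 to 4 (0) in hCD2.SII from day 3 to day 9. Of 90 group levels, 36 moved by more than 1 SD with TMM-scaled totals and 36 with totals over named genes. Depth limits the members near the floor, among them Dock2 with PIB and PIP.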
